A study of Mus musculus with 91 samples.

Results

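The 9 genes described here mark macrophages that are alternatively activated or resident in tissue: Retnla, Mrc1, Cd163, Lyve1, Clec10a, Folr2, Arg1, Mgl2 and Il10. They were taken as every probe whose symbol in the annotation of the array is 1 of these names, which gave 13 of 45281 probes and 9 of 19057 distinct gene symbols. Each gene is given by its brightest probe in epididymal fat, and the other probes of Cd163, Folr2, Arg1 and Mgl2 are given where they differ. RNA came from male C57BL/6J mice that were acclimated on the AIN-76 diet and then either switched to a high-fat diet containing cholesterol (HFD) or kept on AIN-76 as normal diet (ND). Epididymal white adipose tissue (EAT) was measured after 2, 4, 8, 20 and 24 weeks on diet, at 7, 9, 13, 25 and 29 weeks of age, on 3 arrays of pooled RNA per diet and week (30 arrays). Mesenteric white adipose tissue (MAT) was measured at the same weeks on 1 pool per diet and week (10 arrays). Liver served as a contrast tissue, with 3 arrays per diet at the 5 weeks of EAT and also at weeks 6, 12 and 16 (11, 17 and 21 weeks of age), and 3 arrays of the baseline at 5 weeks of age (51 arrays). Whole tissue was used, so that fewer macrophages and less of a transcript per macrophage cannot be told apart. The arrays of a group are the replicates, nothing in the labels says that they came from separate animals, and p-values measure the spread between them.

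Alternative activation is the state that macrophages enter when interleukin 4 or interleukin 13 engages their receptor and the transcription factor STAT6, and it is associated with tissue repair and with lean fat. Resident macrophages settle in a tissue early and carry scavenger receptors and lectins on their surface, while monocytes recruited in obesity bring another set of genes. The members fall into secreted products (Retnla and Il10), an enzyme (Arg1), lectins that bind sugars (Mrc1, Clec10a and Mgl2), and receptors of resident cells (Cd163, Lyve1 and Folr2).

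The start regions of Retnla, Folr2 and Cd163, the members with the largest differences at 20 and 24 weeks together, are printed first, because Retnla is a known target of STAT6 and the others serve for comparison. Sequences are from RefSeq on build GRCm38.p6, where 5 of the 9 members had an entry, each with 250 bases before and 50 bases after the gene's start. Capitals mark a match to the STAT6 motif, TTC and GAA with any 4 bases between them, searched on both strands.
Retnla, chr16:48842359-48842658, plus strand: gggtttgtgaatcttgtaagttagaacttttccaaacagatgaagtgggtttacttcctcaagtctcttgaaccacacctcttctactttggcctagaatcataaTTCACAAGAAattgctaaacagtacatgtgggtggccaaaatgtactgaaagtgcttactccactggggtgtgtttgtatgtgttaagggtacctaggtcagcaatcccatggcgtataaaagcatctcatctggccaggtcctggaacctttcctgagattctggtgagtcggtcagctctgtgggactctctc
Cd163, chr6:124304401-124304700, plus strand: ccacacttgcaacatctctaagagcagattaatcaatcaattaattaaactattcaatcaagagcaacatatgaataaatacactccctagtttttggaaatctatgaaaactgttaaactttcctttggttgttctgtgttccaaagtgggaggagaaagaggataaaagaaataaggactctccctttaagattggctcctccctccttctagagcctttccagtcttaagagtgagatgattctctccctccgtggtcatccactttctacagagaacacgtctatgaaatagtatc
Folr2, chr7:101857141-101857440, minus strand: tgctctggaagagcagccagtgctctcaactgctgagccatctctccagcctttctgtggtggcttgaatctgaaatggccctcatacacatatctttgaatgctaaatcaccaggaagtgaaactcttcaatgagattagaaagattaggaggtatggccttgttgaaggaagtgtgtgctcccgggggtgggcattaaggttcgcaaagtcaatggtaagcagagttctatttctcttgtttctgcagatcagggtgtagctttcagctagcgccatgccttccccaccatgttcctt
The motif was found in the Retnla region, beginning 145 bases before the start, and in none of the other 5 regions of members, which include a second region of Folr2. It is palindromic, so that the match stands on both strands. Of all 32851 such regions, 6.95% held a match. The core motif of the macrophage factor PU.1, GAGGAA, was found in the regions of Mrc1, Mgl2 and Retnla and in 28.3% of all regions. A match describes letters and not a bound site.

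Array background has to be known before the values are read. The 5th percentile of probe intensities was 109.9 to 121 on 9 EAT arrays, namely the ND arrays of 2 weeks and all arrays of 24 weeks, while the remaining 21 EAT arrays had 75.7 to 92.1. At 2 weeks the diets therefore lie on arrays of different background, and at 24 weeks levels cannot be set against those of other weeks. Within 4, 8 and 20 weeks the background ranges of the diets overlapped. At 24 weeks they did not, with 109.9 to 114.9 on HFD arrays and 116.0 to 120.7 on ND arrays, and the part of this in the 24-week values was not tested. RNA of other tissues was also present in some pools. Summed normalized intensity of 9 hepatocyte genes was 46499 to 70862 in HFD and 32897 to 92065 in ND pools of 8 weeks, and at most 13786 in any EAT pool of the other weeks. Summed intensity of 7 epididymis genes was high in 2 of the 3 HFD pools of 4 weeks, where it reached 178975, against at most 27694 in ND pools of 4 weeks. At 20 weeks 3 of 7 mesothelial genes and 1 of 5 skeletal muscle genes were lower on HFD. Krt8 and Krt18, keratins of the mesothelium, differed by -2.47 and -1.52, and Acta1, the actin of skeletal muscle, by -1.81. Summed intensity of the mesothelial genes at 20 weeks was 856 to 1773 in HFD pools and 2426 to 4009 in ND pools, and that of the muscle genes was 1369 to 1953 in HFD pools and 3782 to 4764 in ND pools. The part of either in the member values was not tested. General macrophage markers were present in EAT at every week, and their summed intensity at 20 weeks was 48570 to 51273 in HFD pools and 17540 to 23206 in ND pools.

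After long feeding the members moved in opposite directions in EAT. Cd163 and Retnla fell, Folr2, Mrc1 and Il10 rose, and Lyve1 was lower at both late weeks without passing the test at either. A member passed the test when its limma p, adjusted by the Benjamini-Hochberg method over all probes of a comparison, was under 0.05. At 20 weeks 2 of 9 members rose and 1 fell, where 3.85% of all probes rose and 3.54% fell. At 24 weeks 3 members rose and 2 fell, where 5.99% of all probes rose and 4.51% fell. The median log2 difference of HFD less ND over the 9 members was 0.18 at 20 weeks and 0.15 at 24 weeks, and the median of all probes was -0.00 at both weeks. The HFD pools lay wholly above the ND pools in 5 members and wholly below in 2 at 20 weeks, where 12.2% and 12.6% of all probes did so, and above in 4 and below in 3 at 24 weeks, where 13.2% and 12.7% did.

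**Figure D1:**
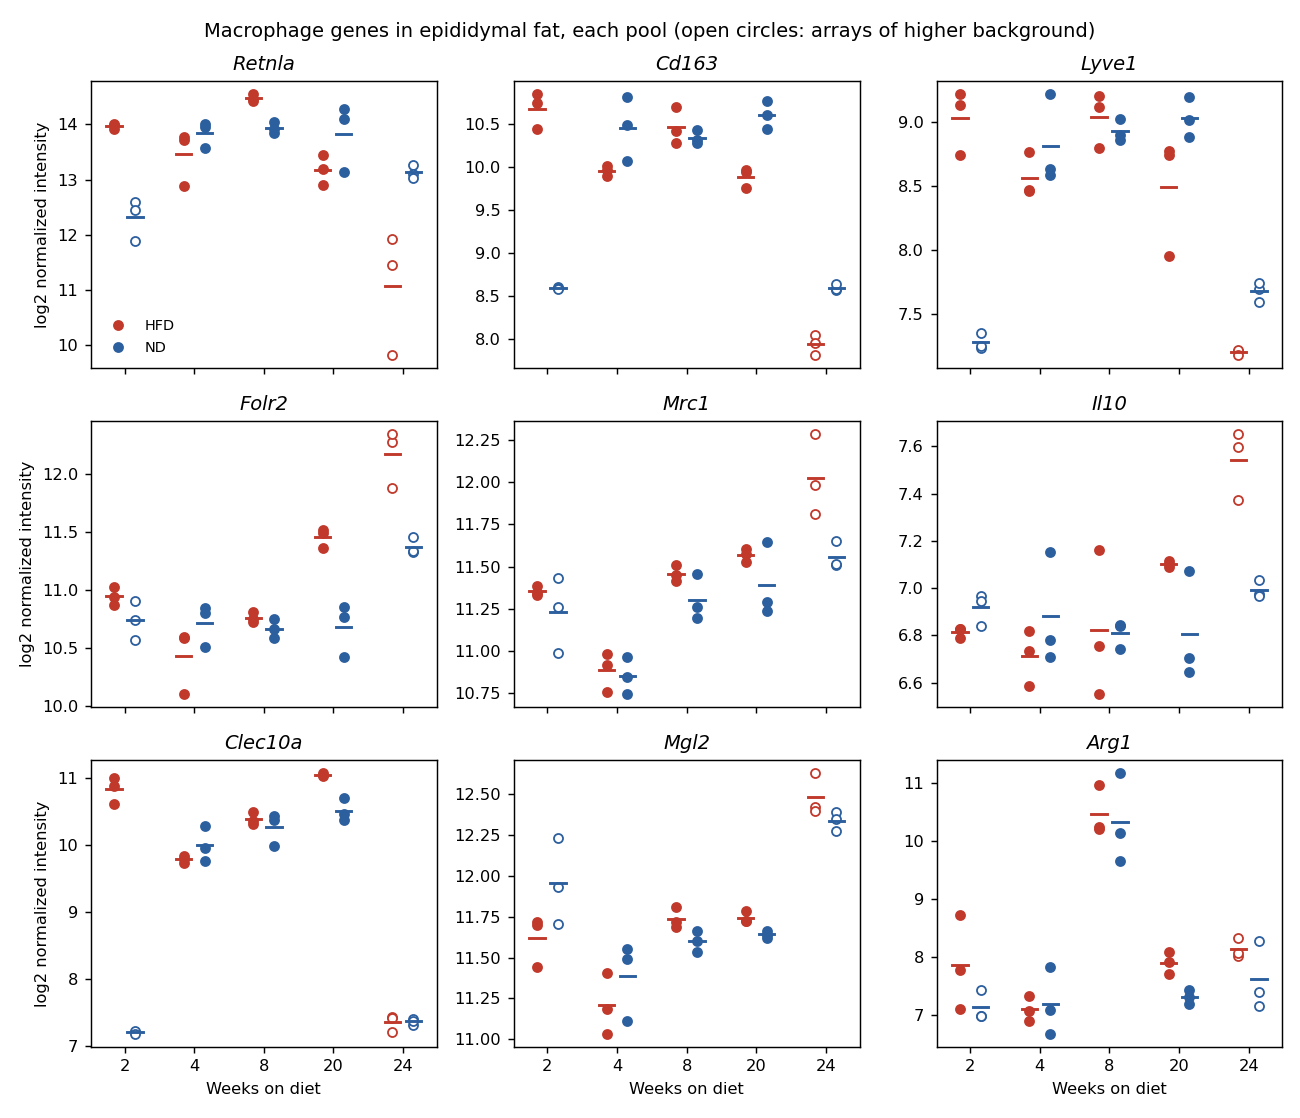
The 9 genes in epididymal fat, as log2 normalized intensity against weeks on diet, with each circle 1 pool (3 per diet and week, HFD left of ND) and each bar the mean. Open circles are arrays of higher background. At 24 weeks the HFD pools of Retnla, Cd163 and Lyve1 lie below every ND pool, and those of Folr2, Mrc1, Il10 and Mgl2 lie above. A second Mgl2 probe, not shown, had a lower mean on HFD at 24 weeks.

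Retnla encodes RELM alpha, a cytokine-like protein secreted by alternatively activated macrophages. At 20 weeks its log2 intensity was 12.90, 13.45 and 13.19 in HFD pools and 13.13, 14.09 and 14.27 in ND pools, and the diets overlapped. By 24 weeks it was 11.92, 9.83 and 11.45 in HFD pools and 13.25, 13.10 and 13.03 in ND pools. All HFD pools lay below all ND pools, and the HFD pools were far more spread (SD 1.10 against 0.11 on the log2 scale, n = 3 each). The log2 difference of HFD less ND was -2.06 ± 0.35 (SE) at 24 weeks, a 4.17-fold lower level (limma, adjusted p = 0.000198), and -0.65 ± 0.35 at 20 weeks (adjusted p = 0.358). Retnla was the only member past 2-fold with the test passed at 24 weeks, where 0.287% of all probes fell past both limits. Without HFD pool 2 the difference at 24 weeks was -1.44, and the test was still passed. It lost the call in the fit of 24 weeks alone (adjusted p = 0.0538). The 20-week difference was -0.35 under median scaling and -1.01 to -0.43 when 1 pool of that week was left out, and did not pass in any of these. The change of the diet effect between 20 and 24 weeks, -1.41, did not pass (adjusted p = 0.234), nor did that of any other member, where 0.42% of all probes passed in either direction. Without HFD pool 1 of 24 weeks the Retnla change was -1.83 and passed (adjusted p = 0.0449), and without HFD pool 2 it was -0.79 and did not (adjusted p = 0.562). Retnla and Clec10a had an unadjusted p under 0.05 for that change, as did 12% of all probes. The Clec10a change, -0.55 (adjusted p = 0.156), passed under median scaling, where it was -0.83 (adjusted p = 0.0376). On both diets Clec10a lay far lower on the 24-week arrays, which have higher background, than at 20 weeks. The part of this in the Clec10a change was not tested.

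Cd163, the scavenger receptor that takes up haemoglobin bound to haptoglobin, was lower on HFD at both late weeks. At 20 weeks its log2 intensity was 9.94, 9.96 and 9.76 in HFD pools and 10.60, 10.76 and 10.43 in ND pools. The 24-week values were 8.05, 7.82 and 7.95 in HFD pools and 8.58, 8.59 and 8.64 in ND pools. No HFD pool reached any ND pool at either week. The log2 difference was -0.71 ± 0.13 (SE) at 20 weeks (adjusted p = 0.000859) and -0.66 ± 0.13 at 24 weeks (adjusted p = 0.00125), which is 1.64-fold and 1.58-fold lower. A second probe of Cd163 was not detected in any of these 12 pools.

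Lyve1, a hyaluronan receptor of resident macrophages, is also a marker of lymphatic endothelium. At 20 weeks its log2 intensity was 7.95, 8.78 and 8.75 in HFD pools and 9.02, 8.89 and 9.20 in ND pools. Its 24-week values were 7.20, 7.22 and 7.18 in HFD pools and 7.69, 7.59 and 7.74 in ND pools. The diets did not overlap at either week, yet neither difference passed the test (-0.54, adjusted p = 0.0638, at 20 weeks and -0.47, adjusted p = 0.0957, at 24 weeks). Over both weeks together the difference was -0.51 ± 0.12 (SE) and passed (adjusted p = 0.00539). Without HFD pool 1 of 20 weeks the 20-week difference was -0.27, and without pool 2 it was -0.69 and passed (adjusted p = 0.0325). With normexp background correction the 24-week difference was -1.04 and passed (adjusted p = 0.005). The lymphatic endothelial list had a median difference of -0.66 at 20 weeks, with 2 of 6 genes lower, and of -0.43 at 24 weeks, with 1 lower. Its leading genes Mmrn1, a secreted glycoprotein, and Reln, an extracellular matrix protein, differed by -1.21 (adjusted p = 0.00499) and -1.20 (adjusted p = 0.00105) at 20 weeks. Summed intensity of the 6 genes was 3693 to 6617 in HFD pools and 8128 to 12166 in ND pools at 20 weeks, and 5455 to 9049 in HFD pools and 9356 to 11502 in ND pools at 24 weeks. The part of these cells in the Lyve1 value was not tested.

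Folr2, a folate receptor of resident macrophages, rose. At 20 weeks its log2 intensity was 11.49, 11.36 and 11.52 in HFD pools and 10.42, 10.85 and 10.76 in ND pools. At 24 weeks it was 12.27, 11.88 and 12.35 in HFD pools and 11.46, 11.32 and 11.33 in ND pools. The diets were apart at both weeks. The log2 difference was 0.78 ± 0.13 (SE) at 20 weeks (adjusted p = 0.000287) and 0.79 ± 0.13 at 24 weeks (adjusted p = 0.000142), 1.71-fold and 1.73-fold higher. The second probe of Folr2 gave 0.93 and 0.84 and also passed at both weeks. At 4 weeks the difference was -0.29, and the change of the diet effect between 4 and 20 weeks was 1.07 ± 0.19 (adjusted p = 0.000955). Folr2 and Clec10a were the 2 members with a higher effect at 20 than at 4 weeks, where 1.9% of all probes had one. With only the HFD pool of 4 weeks that held no excess of epididymis transcripts kept in its group, the change was 1.39 for Folr2 (adjusted p = 0.000279) and 0.80 for Clec10a (adjusted p = 0.0308). These values assume that the lone pool varies as the pools of the other groups do.

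Mrc1, the mannose receptor CD206, rose on HFD at 24 weeks. At 20 weeks its log2 intensity was 11.58, 11.60 and 11.52 in HFD pools and 11.64, 11.23 and 11.29 in ND pools, so that 1 ND pool was the brightest. By 24 weeks it was 11.81, 12.29 and 11.98 in HFD pools and 11.65, 11.51 and 11.51 in ND pools. The difference was 0.18 ± 0.11 (SE) at 20 weeks (adjusted p = 0.477) and 0.47 ± 0.11 at 24 weeks (adjusted p = 0.00732). The 24-week call was lost without HFD pool 2, where the difference was 0.34 (adjusted p = 0.0734), and with each week fitted alone (adjusted p = 0.0765). When arrays were scaled to a common median instead, the difference was 0.29 at 24 weeks (adjusted p = 0.0917) and 0.47 at 20 weeks (adjusted p = 0.00517). The change between these weeks, 0.29, did not pass (adjusted p = 0.499).

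Il10, which encodes the anti-inflammatory cytokine interleukin 10, lay near the detection limit. At 24 weeks its log2 intensity was 7.37, 7.65 and 7.60 in HFD pools, all detected, and 7.03, 6.98 and 6.96 in ND pools, none detected. Detection means a detection p under 0.05 against the negative controls of the array. The fitted difference was 0.55 ± 0.12 (SE, adjusted p = 0.00395), and with ND at the lowest detected signal Il10 was at least 1.36-fold higher on HFD. With normexp background correction the fitted difference was 1.31 (adjusted p = 0.000547). At 20 weeks 3 HFD pools and 1 ND pool were detected, and the difference of 0.29 did not pass (adjusted p = 0.196). Without ND pool 3 of 20 weeks it was 0.43 and passed (adjusted p = 0.0414).

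Clec10a and Mgl2 encode closely related galactose-type lectins of macrophages and dendritic cells, known together in the mouse as CD301. Clec10a at 20 weeks was 11.04, 11.03 and 11.07 in HFD pools and 10.38, 10.46 and 10.69 in ND pools. It was higher by 0.53 ± 0.12 (SE, adjusted p = 0.00426), and its change of diet effect between 4 and 20 weeks was 0.74 (adjusted p = 0.0101). The 24-week values were 7.43, 7.21 and 7.41 in HFD pools and 7.40, 7.31 and 7.37 in ND pools, a difference of -0.01. The ND pools of 2 weeks, on arrays of the same higher background, lay at 7.21, 7.22 and 7.18, while every pool on the other arrays was at 9.72 or more. All 6 pools of 24 weeks thus lay close to those ND pools. Mgl2 was 11.78, 11.73 and 11.72 in HFD pools and 11.64, 11.66 and 11.62 in ND pools at 20 weeks, which did not overlap, but its difference of 0.10 did not pass (adjusted p = 0.765). At 24 weeks the Mgl2 difference was 0.15 and did not pass (adjusted p = 0.539). The second Mgl2 probe went the other way, with -0.03 at 20 weeks and -0.28 at 24 weeks, and did not pass either.

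Arg1, the enzyme that splits arginine into ornithine and urea, is made by alternatively activated macrophages and in great amount by hepatocytes. Its difference in EAT was 0.59 ± 0.37 (SE) at 20 weeks (adjusted p = 0.461) and 0.52 ± 0.37 at 24 weeks (adjusted p = 0.464). With each week fitted alone the 20-week difference passed (adjusted p = 0.025). With normexp background correction it was 1.14 at 20 weeks and 1.00 at 24 weeks, and did not pass (adjusted p = 0.379 and 0.403). At 8 weeks it lay at 10.97, 10.21 and 10.24 in HFD pools and 10.15, 9.66 and 11.18 in ND pools. From 4 to 8 weeks it rose by 3.37 on HFD (adjusted p = 1.25e-06) and by 3.13 on ND (adjusted p = 4.31e-06), in the pools that also held hepatocyte transcripts. The part of those transcripts in the Arg1 values was not tested.

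**Figure D2:**
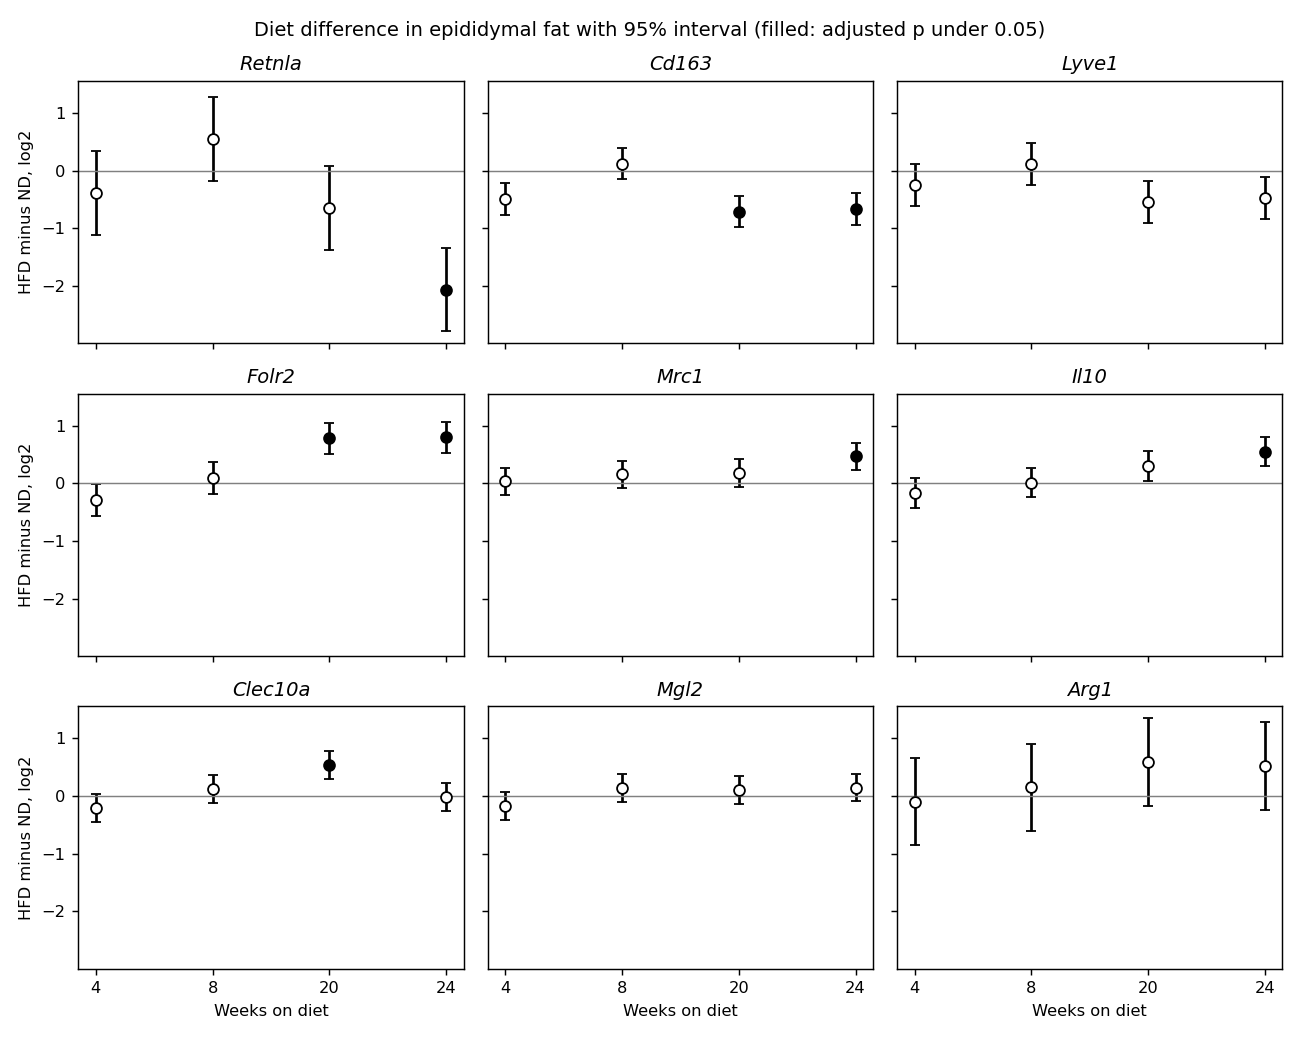
Log2 difference of HFD less ND in epididymal fat at 4, 8, 20 and 24 weeks (x axis) for the 9 genes, with the 95% interval of the fit and filled points where the adjusted p was under 0.05. Retnla reached -2.06 and Folr2 0.79 at 24 weeks.

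At 4 weeks and at 8 weeks 0 of 9 members passed, where only 0.411% and 0.709% of all probes did in either direction. The lack of calls is thus not particular to the members. With limma the diet effect at 20 less 4 weeks did not pass for Cd163 (-0.21, adjusted p = 0.667) or Retnla (-0.27, adjusted p = 0.881). It did not pass for Lyve1 either (-0.29, adjusted p = 0.651). A late onset was therefore not shown for these 3 genes. With limma 2 members had an unadjusted p under 0.05 at 4 weeks, Cd163 (-0.50) and Folr2 (-0.29), and 0 had one at 8 weeks, where 9.19% and 9.61% of all probes did. At 2 weeks 4 members were higher and 1 was lower, but so were 14.5% and 21.7% of all probes, on arrays of different background. Clec10a differed by 3.63, Cd163 by 2.08, Lyve1 by 1.76, Retnla by 1.65 and Mgl2 by -0.33. When the difference between ND arrays of 20 and of 24 weeks, which also spans both background levels, was taken off, these became 0.48, 0.08, 0.40, 0.94 and 0.36, and none passed. Folr2 was not called at 2 weeks before this was done. It then differed by 0.90 (limma, adjusted p = 0.00562) as the only member that passed, where 2.35% of all probes were higher. The ND difference taken off also spans 25 and 29 weeks of age. Its part in the Folr2 value was not tested, so that 0.90 is not a diet difference of the 2-week pools alone.

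On each diet some members rose between 4 and 20 weeks. On HFD 5 of 9 members rose, where 8.69% of all probes did. They were Clec10a by 1.26, Folr2 by 1.03, Mrc1 by 0.68, Mgl2 by 0.53 and Il10 by 0.39 on the log2 scale. On ND 2 of 9 rose, where 3.37% of all probes did, namely Mrc1 by 0.54 and Clec10a by 0.52. From 4 to 8 weeks 5 members rose on HFD and 2 on ND, where 3.05% and 1.03% of all probes did, with Arg1 and Mrc1 among them on both diets. In these comparisons 2 HFD pools of 4 weeks held many epididymis transcripts, and the pools of 8 weeks held hepatocyte transcripts. The part of either in these rises was not tested. Il10 lay near the detection limit. Between 4 and 20 weeks Retnla, Cd163 and Lyve1 did not pass on either diet, with -0.28, -0.07 and -0.08 on HFD and -0.01, 0.14 and 0.22 on ND.

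Over 20 and 24 weeks together 4 members were higher and 3 were lower, where 7.09% and 7.13% of all probes were. The higher ones were Folr2, Mrc1, Il10 and Clec10a, and the lower ones Retnla, Cd163 and Lyve1. The Clec10a call (0.26, adjusted p = 0.0364) was lost when any 1 of 10 of the 12 pools was left out. Markers shared by macrophages rose at the same weeks, with 11 of 12 genes higher and a median difference of 1.14 at 20 weeks and 1.18 at 24 weeks. Adgre1, which encodes the macrophage surface protein F4/80, was higher by 1.77 (adjusted p = 3.42e-07) at 20 weeks. Set against the mean of these 12 markers, every member had a lower value on HFD, with a log2 difference of -2.51 for Retnla, -1.84 for Cd163, -1.67 for Lyve1, -1.03 for Mgl2, -0.90 for Clec10a, -0.83 for Mrc1, -0.74 for Il10, -0.60 for Arg1 and -0.37 for Folr2. The exact two-sided permutation test within weeks gave p = 0.005 for 8 members, the smallest that its 400 arrangements can give, and p = 0.015 for Arg1. The same test called 98.8% of all probes lower against these markers, so that this is not particular to the members.

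Related genes gave mixed counts. Interleukin 4 and 13 signalling was covered by 12 genes, of which 2 fell at 20 weeks with none higher, while 24 weeks had 1 gene higher and 2 lower. Jak1, the kinase bound to the interleukin 4 receptor, differed by -0.95 at 20 weeks (adjusted p = 0.000232) and by -1.14 at 24 weeks (adjusted p = 1.35e-05). Il33, an alarmin that acts on type 2 lymphoid cells, differed at 20 weeks by -0.49 (adjusted p = 0.00842), and Pparg, a nuclear receptor of adipocytes and macrophages, at 24 weeks by -0.72 (adjusted p = 0.00192). Of 9 adipocyte genes 2 were lower at 20 weeks and 4 at 24 weeks, with none higher. Adipoq and Retn, which encode the adipocyte hormones adiponectin and resistin, differed by -0.61 and -0.86 at 24 weeks, and Lipe, hormone-sensitive lipase, by -0.42. The summed intensity of these 9 genes was 192563 to 233120 in HFD pools and 213628 to 232274 in ND pools at 24 weeks, and the part of adipocytes in the values of Pparg and the members was not tested. Of 12 other targets of alternative activation 4 rose and 1 fell at 20 weeks. Chil3, a chitinase-like protein, was higher by 1.00 at 20 weeks (adjusted p = 1.06e-07) and by 0.19 at 24 weeks (adjusted p = 0.244), and Msr1, a scavenger receptor, by 0.61 at 20 weeks (adjusted p = 8.11e-05). Both were dim, with a mean log2 intensity of 7.16 each over the EAT arrays, against 6.94 for Il10. Other probes of these genes were dimmer still, and their differences are not given. Rnase2a, an eosinophil-type ribonuclease, differed by 1.66 at 8 weeks (adjusted p = 0.0018) and by -1.48 at 24 weeks (adjusted p = 0.000277).

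Among 19 other genes of resident macrophages, 20 weeks had 3 higher and 3 lower, and 24 weeks had 2 higher and 5 lower. Cd209f, a lectin, differed by -1.51 at 24 weeks (adjusted p = 3.66e-06), and F13a1, a clotting factor subunit, by -0.92 (adjusted p = 0.000202). Ms4a7 was higher by 2.32 at 20 weeks (adjusted p = 4.21e-07). Of 7 genes of interleukin 10 signalling 2 rose at 20 weeks and 5 at 24 weeks. The receptor subunit Il10ra was higher by 1.02 at 24 weeks (adjusted p = 5.11e-07). Of 12 genes of classical activation and recruited macrophages 6 rose at 20 weeks and 6 at 24 weeks, with Trem2, a lipid receptor, higher by 3.78 (adjusted p = 1.72e-10) and Gpnmb, a lysosomal glycoprotein, by 3.23 (adjusted p = 1.65e-10) at 20 weeks. The median difference of 8 eosinophil and type 2 lymphoid genes was 0.08 at 20 weeks and 0.00 at 24 weeks.

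Likeness of pattern was measured across the 24 EAT arrays of 4, 8, 20 and 24 weeks, after the mean of each week was taken off, and is a description of arrays that share their diets and tissue. Retnla was most like Id1 (r = 0.94), Cd209f (0.94) and Hmgn3 (0.93). Cd163 was most like Cd209b (0.91), BC051142 (0.91) and Lyz1 (0.89). Folr2 was most like C1qb (0.96), Mfap2 (0.96) and C1qc (0.96), of which C1qb and C1qc are chains of complement C1q. Mrc1 was most like Acp2 (0.94), Pitpna (0.93) and Pla2g15 (0.92). Lyve1 was most like Gdf10 (0.87), Fam180a (0.87) and Prrt4 (0.85), Clec10a most like Taf9 (0.85), Cd44 (0.83) and Ryr1 (0.82), and Mgl2 most like Ncf1 (0.78), Olfr1225 (0.76) and BC004004 (0.75). Arg1 was most like F9 (0.84), Cyp2c70 (0.80) and F10 (0.80), which hepatocytes express. Among the members, Cd163 and Lyve1 had r = 0.71, Retnla and Cd163 0.68, and Retnla and Mrc1 -0.76. Il10 was detected on 8 of the 24 arrays and was left out.

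**Figure D3:**
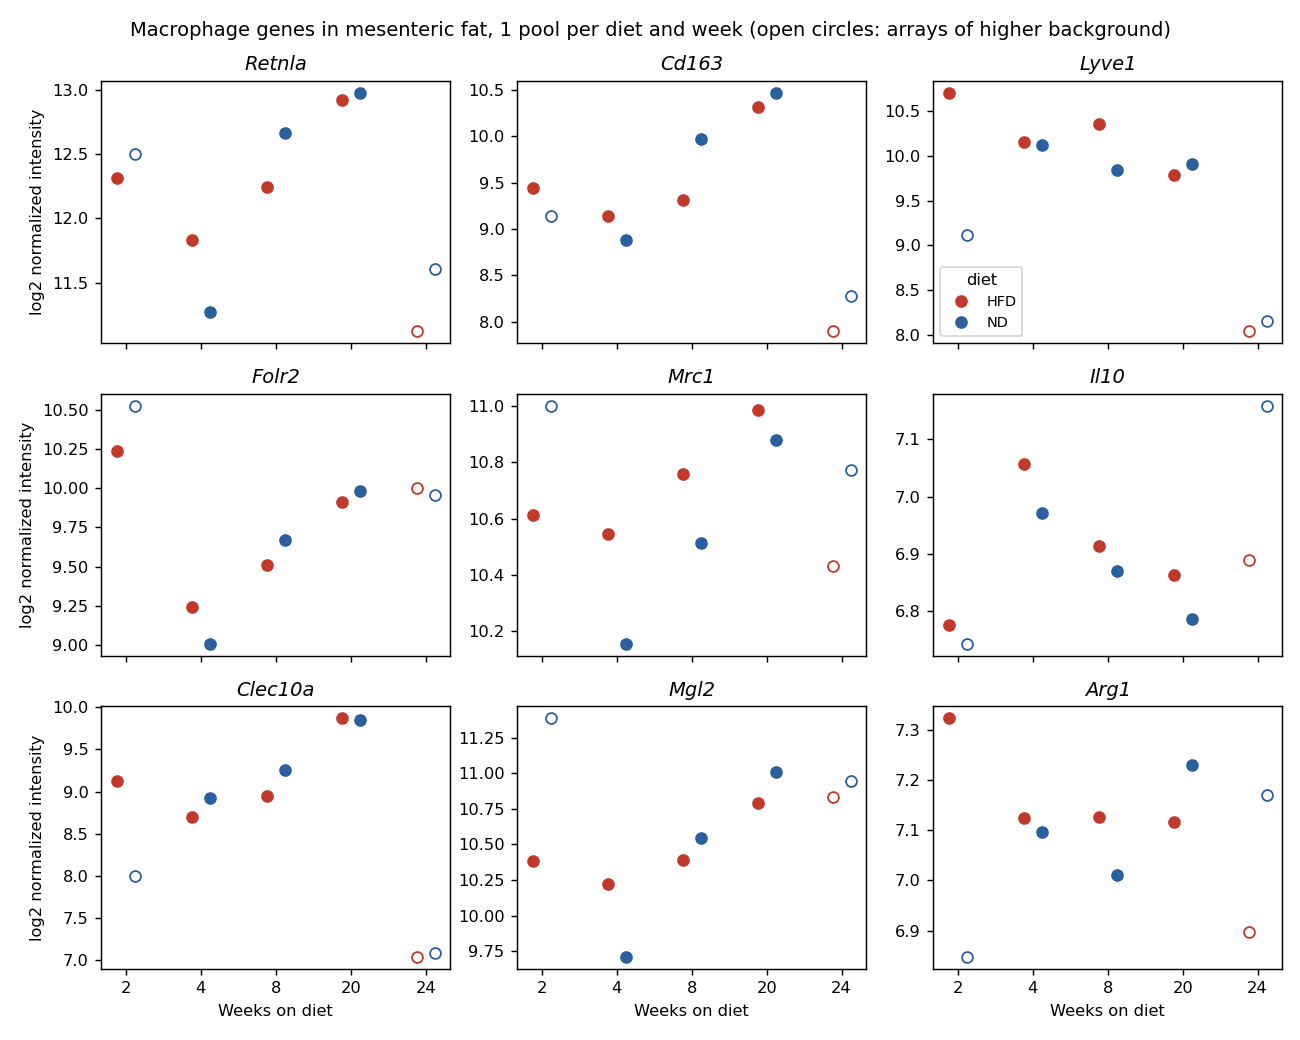
The 9 genes in mesenteric fat as log2 normalized intensity against weeks on diet, with 1 circle per pool (HFD left of ND). The ND pool of 2 weeks and both pools of 24 weeks (open circles) are on arrays of higher background. No gene is on 1 side of ND at every week.

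In MAT no member separated the diets across the weeks. With week as a block 0 of 9 members and 0% of the 45281 probes passed, so that limma called nothing at all here, and 0 members had an unadjusted p under 0.05, where 5.93% of all probes did. The log2 difference was 0.38 ± 0.25 (SE) for Lyve1, -0.19 ± 0.19 for Mgl2, -0.12 ± 0.15 for Retnla and -0.12 ± 0.15 for Cd163. Summed intensity of the 9 hepatocyte genes was uneven in MAT too, with 16553 in the HFD and 42480 in the ND pool of 20 weeks and 25568 in the HFD and 1861 in the ND pool of 24 weeks, and its part in the MAT values was not tested. Single weeks have 1 pool per diet and no test. At 2 weeks Lyve1 was 10.71 in the HFD pool and 9.12 in the ND pool, Clec10a was 9.12 in the HFD pool and 8.00 in the ND pool, and Mgl2 was 10.38 in the HFD pool and 11.38 in the ND pool. These 3 were past 2-fold, where 1.59% of all probes were higher and 0.819% lower. The 5th percentile of intensity was 81.3 on that HFD array and 108 on that ND array. At 4, 8, 20 and 24 weeks 0 of 9 members were past 2-fold. The share of all probes past 2-fold was 0.464% higher and 0.0309% lower at 4 weeks, 0.13% and 0.665% at 8 weeks, 0.0751% and 0.57% at 20 weeks, and 1.21% and 0.846% at 24 weeks. Retnla at 24 weeks was 11.12 in the HFD pool and 11.61 in the ND pool.

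Liver held other levels of these genes. Arg1 had a median log2 value of 14.6 on HFD and 14.7 on ND over 24 arrays each, where it belongs to the urea cycle of hepatocytes. Retnla, with a median of 6.96 on HFD and 7.01 on ND, was low, as were Il10, Clec10a and Mgl2. Mrc1 ranged between 9.91 and 10.77 on HFD and between 9.74 and 10.71 on ND. For liver no detection p was available among the values used. Over the 8 weeks 3 members were higher on HFD and 1 was lower, where 7.22% of all probes were higher and 7.43% lower. Week by week, the share of all probes that passed in either direction was 1.81% at 2 weeks, 2.64% at 4, 7.43% at 6, 3.61% at 8, 1.16% at 12, 6.12% at 16, 2.78% at 20 and 5.08% at 24 weeks, and members that passed were found at 6, 8, 16, 20 and 24 weeks.

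Folr2 and Cd163 had the largest diet differences of the 9 members in liver over the weeks together. Folr2 averaged higher on HFD at each of the 8 weeks, by 0.53 ± 0.06 (SE) over the weeks together (adjusted p = 9.05e-10), and passed singly at 6, 8 and 24 weeks. The 6-week call was lost without ND array 2 (0.56, adjusted p = 0.0664) or HFD array 1 (0.56, adjusted p = 0.065), and the 8-week call without ND array 1 (0.58, adjusted p = 0.059) or HFD array 3 (0.62, adjusted p = 0.0529). Its 24-week values were 9.60, 9.81 and 9.46 in HFD livers and 8.90, 8.87 and 8.68 in ND livers, a difference of 0.81 (adjusted p = 0.000807). Cd163 was lower on HFD from 16 weeks. At 24 weeks it was 7.15, 7.29 and 7.05 in HFD livers and 7.93, 8.09 and 7.78 in ND livers. These HFD values were near the low level of Retnla in liver. The Cd163 difference was -0.75 at 16 weeks (adjusted p = 0.000157), -0.82 at 20 weeks (adjusted p = 6.3e-05) and -0.76 at 24 weeks (adjusted p = 9.3e-05). No HFD liver of these weeks reached an ND liver of its week. Of all probes, 7.87% at 16 weeks, 8.73% at 20 weeks and 12.2% at 24 weeks also lay wholly lower on HFD. With each week fitted alone the 16-week call was lost (adjusted p = 0.274). Clec10a and Mgl2 were higher by 0.09 and 0.10 over the weeks (adjusted p = 0.0192 and 0.0234), and these calls were lost without the arrays of 6 or 8 weeks for Clec10a and of 12 or 24 weeks for Mgl2. General macrophage markers were higher in 11 of 12 genes in liver, with a median difference of 0.65.

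**Figure D4:**
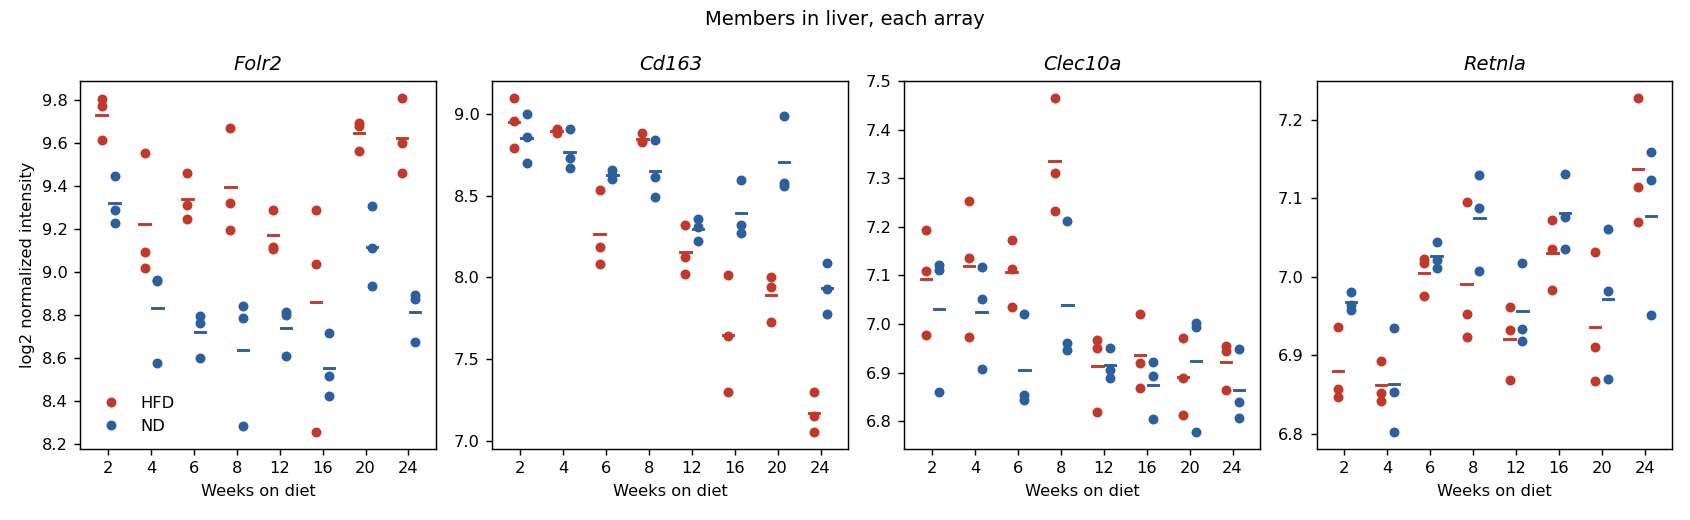
Folr2, Cd163, Clec10a and Retnla in liver as log2 normalized intensity against weeks on diet, with each circle 1 array (3 per diet and week, HFD left of ND) and each bar the mean. The HFD values of Folr2 have the higher mean at all 8 weeks, and those of Cd163 lie below ND at 16, 20 and 24 weeks.

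The diet effect at 20 and 24 weeks was compared between EAT and liver in 1 fit over both tissues, where 5.59% of all probes had a higher effect in EAT and 6.16% a lower one. The effect in EAT less that in liver was -1.37 for Retnla (adjusted p = 4.93e-06), -0.61 for Lyve1 (adjusted p = 0.00459) and 0.50 for Il10 (adjusted p = 6.25e-05). The tissues did not differ past the test for Cd163 (0.11 ± 0.14, SE) or Folr2 (0.12 ± 0.16), which moved the same way in both. The tissues were normalized separately, and Retnla and Il10 were close to the floor of the liver values.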

How the data were processed

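Per the labels, total RNA was labelled with biotin and hybridised to Illumina mouse arrays. The authors' deposited EAT and MAT tables gave intensity values and a detection p-value per probe, and the deposited liver table gave normalized log2 values. The submitters' processing notes name BeadStudio 3.1.3 and R 2.4.1. Here, EAT and MAT intensities were quantile normalized and taken to log2, which matched the deposited log2 values within 0.00112. Of 45281 probes 34885 had 1 symbol, 18 several and 10378 none. Differences were fitted with limma 3.58.1 in R 4.3.3 over the arrays of a tissue, with Benjamini-Hochberg adjustment over all probes and a threshold of 0.05. In MAT week was a block. The scripts were tested on simulated data.

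The 9 members are all named, each by its brightest probe in EAT. For related gene lists the text names some of the up to 4 genes with the largest change among those that passed at 20 or 24 weeks. The members and lists were chosen with earlier results of these data known. The comparison between tissues and the setting with HFD 4-week pool 1 alone were added after seeing the data. Alternatives covered scaling, background correction, filters, each week alone, the methods' t-test, the replicate block and leaving out arrays. The number of arrays limits the precision.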

Additional observations from a re-analysis of the deposited data

Results flagged for a closer look

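In EAT the diet effect (log2 HFD less ND) of 2 members differed between 20 and 4 weeks by the test of that difference, by 1.07 for Folr2 and by 0.74 for Clec10a, where 1.9% of all probes had a higher effect at 20 weeks. At 4 weeks 2 of 3 HFD pools held epididymis transcripts.

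Between tissues, the diet effect at 20 and 24 weeks in EAT less that in liver was -1.37 for Retnla, -0.61 for Lyve1 and 0.50 for Il10, each by the test of the difference in 1 fit over both tissues. The tissues were normalized separately. Retnla and Il10 were close to the floor of the liver values, where their effects were 0.01 and -0.08. For these 2 genes the test therefore mostly repeats the effect in EAT.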

How the results depend on the processing

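Of 2553 values of single genes under the alternatives, 2470 stayed on their side of the threshold, 51 lost the call and 28 gained one. Another 4 had a call in the main fit and changed sign. Direction was not compared where neither value passed, and some of the 2470 changed sign. For Retnla the diet effect at 20 less 4 weeks was -0.27 in the main fit and 0.19 under median scaling. The 4 counted sign changes were in Cd163 with its second probe (-0.038 at 2 weeks, 0.041 at 20 weeks and 0.0059 over 20 and 24 weeks) and in Mgl2 at 2 weeks less the ND difference between 20 and 24 weeks (0.36). With that difference taken off, 1 member was higher and 0 were lower at 2 weeks. Of the counts of members, only the larger changes are given here, and smaller ones also occurred. With median scaling, for example, Mrc1 passed at 20 weeks and no longer at 24 weeks. Median scaling gave 1 member with a lower diet effect at 24 than at 20 weeks, normexp gave 1 member higher on ND between 4 and 8 weeks, and the detection filter gave 2 lower at 20 weeks. With each week fitted alone 0 members were lower at 2 weeks and 1 was higher at 8 weeks in EAT. The methods' t-test after adjustment called 0 members in either direction at 20 and 24 weeks, and 0 lower at 2 weeks. Without the 2-fold limit, members higher numbered 2 at 20 weeks, 3 at 24 weeks and 4 over both, and members lower numbered 1 at 2 weeks, 1 at 20 weeks, 2 at 24 weeks and 3 over both. With HFD 4-week pool 1 alone, 3 members rose on HFD between 4 and 8 weeks. In liver, each week alone gave 1 higher at 2, 8, 12 and 20 weeks and 2 at 6 weeks, with 2 lower at 6 weeks, none (0) at 16 weeks and 2 at 24 weeks, and probes above the median level gave 1 higher at 8 and at 20 weeks. The cause of these changes was not tested.

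Leaving out 1 array at a time in EAT, members higher numbered 4 to 5 at 2 weeks, 2 to 3 at 20 weeks, 2 to 3 at 24 weeks and 3 to 4 over both, and members lower numbered 0 to 1 at 2 and 4 weeks, 1 to 2 at 20 weeks, 2 at 24 weeks and 3 over both. The diet effect at 24 less 20 weeks was lower in 0 to 1 member. In liver it gave 0 to 1 higher and 0 to 1 lower at 6 weeks, 0 to 2 higher at 8 weeks, 0 to 1 higher at 16 weeks, and 3 to 4 higher and 1 lower over all weeks. Same-numbered arrays correlated between -0.32 and 0.31 in EAT, with 4 of 15 pairs over 0.1 and 3 best with their own number, and between -0.28 and 0.18 in liver, with 1 of 24 pairs over 0.1 and 14 best with their own number, a hint from the data and not from the design. In liver at 2, 6 and 8 weeks every HFD array was best with its own number. The labels name no pairs, and the numbers were not treated as pairs in the main fits. The replicate block changed no count of members: in EAT 2 were higher at 20 weeks and 3 at 24 weeks, 1 was lower at 20 weeks and 2 at 24 weeks, and in liver 3 were higher and 1 lower over all weeks. Signal over background limits Il10 in EAT and Retnla, Il10 and Clec10a in liver. In EAT at 24 weeks Lyve1 on HFD and Clec10a on both diets were also low, though detected. Cd163 was low in the HFD livers of 24 weeks. The part of background in the size of these differences was not tested.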
